A study of Mus musculus with 6 samples.

Results

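Complexes II to V of the mitochondrial respiratory chain were examined in blood stem cells of aged and young mice, as RNA of the subunit genes that lie in the nucleus. Every row of the deposited gene table whose symbol is Sdha, Sdhb, Sdhc or Sdhd (complex II), or starts with Uqcr (complex III), Cox4 to Cox8 (complex IV) or Atp5 (complex V), was taken. This gave 47 of the 24091 genes in the table: 4 of complex II, 8 of complex III, 18 of complex IV and 15 of complex V, with Atp5s and Atp5sl, which are not counted here as subunits. Of the 47, 43 had enough counts to be tested. Subunits encoded by the mitochondrial genome were not analysed here.

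Complex II, succinate dehydrogenase, belongs to both the citric acid cycle and the respiratory chain and passes electrons from succinate to ubiquinone. Complex III moves electrons from ubiquinol to cytochrome c, complex IV passes them from cytochrome c to oxygen, and complex V, the ATP synthase, uses the proton gradient built by the chain to make ATP. Resting blood stem cells are known to draw largely on glycolysis and to raise mitochondrial respiration when they divide and differentiate.

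The cells were hematopoietic stem cells sorted from the bone marrow of mice labelled as wild type; the gate kept lineage-negative cells with Sca-1, c-Kit and CD150 and without CD48. The donors were 20 months old for the libraries aged 1, aged 2 and aged 3 and 2 months old for young 4, young 5 and young 6. Marrow of 4 aged or 30 young mice was combined, per sample or per group (the labels do not say which), and each library is called a pool here. The p-values therefore reflect variation among libraries, part of which may be technical. If marrow was combined per group, all of that variation arose after the mice were combined, and the p-values do not cover differences between mice. The strain and sex are not stated in the labels, and no treatment is named.

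Library totals ran from 16452829 counts (young 4) to 21918658 counts (young 6). Levels are given as CPM, counts relative to library size after TMM scaling, which sets libraries to a common level by the bulk of their genes. Young 4 stood apart: its scaling factor was 0.765 against 1.04 to 1.08 in the other 5, and Actb, which encodes beta-actin, took 4.06% of its counts against 0.555% to 1.36% elsewhere. For that reason the comparisons are given with all 6 libraries and without young 4. Of the genes of the sort, Kit stood at 862 to 1033 CPM in the aged pools against 320 to 868 CPM in the young pools, with the lowest level in young 4. Slamf1, which encodes CD150, stood at 87.6 to 121 and 62.3 to 66.2 CPM, and Ly6a, which encodes Sca-1, at 76.8 to 177 and 28.9 to 46.5 CPM, so that neither overlapped between ages. Cd48, which the gate excludes, was separated by age: it stood at 2.54, 1.14 and 0.511 CPM in aged 1 to aged 3 and at 14.5, 9.47 and 8.59 CPM in young 4 to young 6. It was called lower in aged cells (log2 fold change -2.95 ± 0.56 and, without young 4, -2.71 ± 0.55 SE; adjusted p = 0.0345 and 0.0398, edgeR), and Ly6a was called higher (1.60 ± 0.34 and 1.70 ± 0.38 SE; adjusted p = 0.0435 and 0.0467). The part of Cd48 and Ly6a in the results on complexes II to V was not tested.

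Promoter sequences of 6 members are shown first, because nuclear genes of the chain are known to share promoter elements for the factor NRF1 and for ETS factors such as GABPA. They are windows from 250 bases before to 50 bases after a gene's start, taken from RefSeq (GRCm38.p6, the same build as mm10), on the gene's own strand. Capitals mark the words searched on both strands, the consensus element of NRF1 and CCGGAAG for ETS factors, which overlap in none of the 6 windows; another word, AAGATGGCG for YY1, is in none of them. Cox6b2, Cox5a and Atp5e are shown because they passed the test in at least 1 of the main comparisons. Atp5g1 also passed in 1 of them; its window is not shown and holds none of the searched words. Cox6a1 and Sdhd are shown as examples of the 4 members that hold both words; the others are Atp5h and Atp5k. Sdha is shown because it holds the NRF1 word 3 times and its level was nearly the same at both ages.
Cox6b2, chr7:4753045-4753344, minus strand: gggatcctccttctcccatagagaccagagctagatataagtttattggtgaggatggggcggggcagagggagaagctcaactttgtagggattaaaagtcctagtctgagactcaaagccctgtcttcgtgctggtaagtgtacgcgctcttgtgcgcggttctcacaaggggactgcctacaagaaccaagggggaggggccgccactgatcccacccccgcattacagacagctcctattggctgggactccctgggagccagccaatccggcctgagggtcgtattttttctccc
Cox5a, chr9:57520982-57521281, plus strand: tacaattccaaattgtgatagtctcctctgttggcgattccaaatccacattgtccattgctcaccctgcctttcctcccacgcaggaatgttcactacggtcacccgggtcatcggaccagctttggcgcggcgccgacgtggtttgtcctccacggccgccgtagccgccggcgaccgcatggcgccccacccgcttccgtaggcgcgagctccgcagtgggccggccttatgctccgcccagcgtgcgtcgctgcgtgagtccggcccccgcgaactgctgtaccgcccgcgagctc
Atp5e, chr2:174464052-174464351, minus strand: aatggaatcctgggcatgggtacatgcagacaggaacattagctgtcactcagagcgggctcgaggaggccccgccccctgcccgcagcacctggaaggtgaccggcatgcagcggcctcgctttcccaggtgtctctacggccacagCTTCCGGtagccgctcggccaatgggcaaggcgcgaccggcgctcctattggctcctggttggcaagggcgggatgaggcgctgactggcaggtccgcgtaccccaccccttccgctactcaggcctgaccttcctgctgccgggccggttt
Cox6a1, chr5:115348909-115349208, minus strand: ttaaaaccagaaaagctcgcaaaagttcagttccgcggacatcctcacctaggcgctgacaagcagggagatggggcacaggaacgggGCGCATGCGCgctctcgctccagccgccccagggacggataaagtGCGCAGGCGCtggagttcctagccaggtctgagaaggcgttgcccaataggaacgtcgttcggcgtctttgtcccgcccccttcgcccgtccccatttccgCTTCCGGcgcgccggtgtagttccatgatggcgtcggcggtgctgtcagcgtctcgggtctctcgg
Sdhd, chr9:50603800-50604099, minus strand: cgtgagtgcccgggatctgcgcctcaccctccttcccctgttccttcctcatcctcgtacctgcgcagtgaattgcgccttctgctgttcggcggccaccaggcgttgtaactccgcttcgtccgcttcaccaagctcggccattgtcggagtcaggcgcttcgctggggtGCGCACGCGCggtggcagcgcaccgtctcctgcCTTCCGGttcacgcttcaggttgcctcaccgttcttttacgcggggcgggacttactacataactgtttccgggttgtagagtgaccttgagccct
Sdha, chr13:74350191-74350490, minus strand: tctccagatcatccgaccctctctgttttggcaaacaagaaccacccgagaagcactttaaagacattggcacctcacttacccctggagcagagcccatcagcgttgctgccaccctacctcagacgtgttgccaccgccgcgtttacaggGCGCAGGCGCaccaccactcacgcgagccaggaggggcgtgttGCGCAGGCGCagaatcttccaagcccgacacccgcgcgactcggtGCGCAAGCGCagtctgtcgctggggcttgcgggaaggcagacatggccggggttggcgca

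A window was given for 37 of the 47 members, 35 of them tested. The NRF1 word was found in 10 of these 35 genes (28.6%), against 11.3% of the 10396 tested genes of the whole table that have a window. The ETS word was found in 12 (34.3%, against 19.7%) and the YY1 word in 3 (8.57%, against 3.50%). Of all 32851 windows of that length, 4.60% held the NRF1 word, 8.86% the ETS word and 1.40% the YY1 word. Members with an NRF1 or ETS word had a median log2 fold change (aged minus young) of -0.65 over all 6 libraries and -0.36 without young 4 (18 genes). Members with neither had -0.80 and -0.34 (17 genes). A match is a run of letters and not a measured binding site.

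RNA of complexes II to V was lower in aged than in young stem cells for most subunits, but by small amounts, and few single genes passed the test. The fitted log2 fold change was below 0 for 40 of the 43 tested members (93%), where 47.3% of all 13413 tested genes were below 0. Its median was -0.65, a 1.57-fold lower level, against 0.04 over all tested genes. In edgeR's quasi-likelihood fit, Cox6b2 alone had an adjusted p under 0.05 (1 of 43 lower and 0 higher; 1.5% of all tested genes were called lower and 4.26% higher, 5.76% in all). Before adjustment, 25 members (58.1%) had a p under 0.05 and were lower, and 0 were higher (11.1% of all tested genes were lower at that level and 13.9% higher). All 3 aged libraries lay below all 3 young ones for 30 of the 43 members (69.8%), where this held for 17.6% of all tested genes, and above all 3 young ones for 0 members (19% of all tested genes). In bulk samples such as these, fewer cells of a type and less RNA per cell cannot be told apart.

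Leaving out young 4 lowered the size of the difference and raised the number of calls. The median of the 43 members was then -0.35, a 1.27-fold lower level, and 39 were below 0 (46.6% of all tested genes were). In that fit 4 members passed the test, all lower: Cox6b2 and Cox5a of complex IV and Atp5e and Atp5g1 of complex V (9.3% of members; of all 13779 genes tested there, 2.54% were called lower and 4.93% higher, 7.47% in all). With aged 2 left out as well, Atp5g1 and Atp5o were called lower and the other 3 were not (1.6% of all genes tested there were called lower). Before adjustment, 23 had a p under 0.05 and were lower and 0 were higher (12.2% of all tested genes lower, 15% higher). In 31 members all aged libraries lay below young 5 and young 6 (22.6% of all tested genes), and in 1, Cox7a2l, above them (25.9%). DESeq2 with all 6 libraries called 11 members lower and 0 higher (6.9% of all genes with an adjusted p were called lower), limma-voom 1 (1.77%) and limma-voom with quality weights, which give libraries that stand apart less weight, 20 (13.2%).

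Summed levels were separated by age in each complex. Values are given here and below in the order aged 1, aged 2, aged 3 and young 4, young 5, young 6. Complex II summed to 1151, 1281 and 1145 CPM in the aged pools against 2136 CPM in young 4, 1437 CPM in young 5 and 1363 CPM in young 6. Complex III summed to 1504, 1876 and 1602 CPM in the aged pools against 3518, 2217 and 2060 CPM in the young pools. Complex IV summed to 1888, 2058 and 1827 CPM in the aged pools against 4263, 2437 and 2185 CPM in the young pools. Complex V summed to 3451, 3108 and 2840 CPM in the aged pools against 5725, 4306 and 3857 CPM in the young pools. In all 4 sums the 3 aged libraries were below each young library, and young 4 was far above young 5 and young 6 at this scaling. Over all tested genes the CPM also summed higher in young 4, to 1.31e+06, against 928605 to 960243 in the other libraries. Sums scaled by library totals alone are not given.

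**Figure D1:**
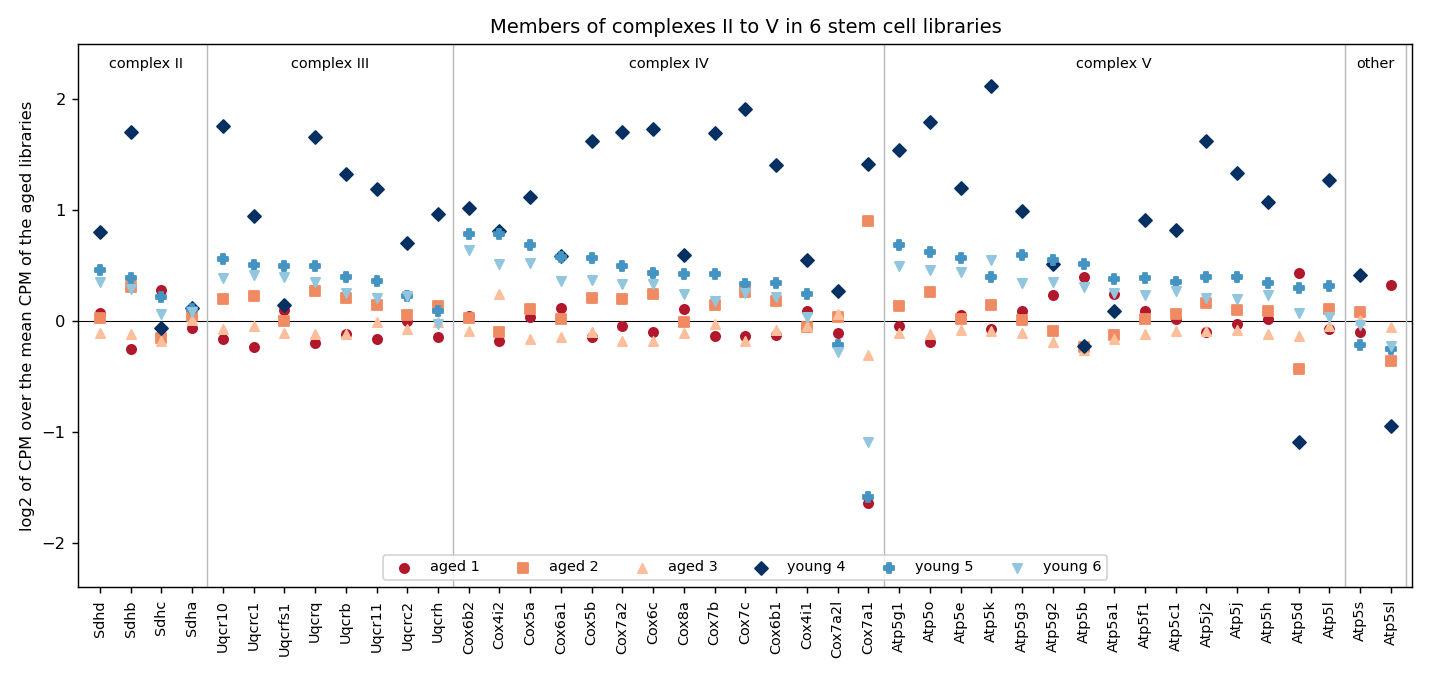
Level of each tested member in each of the 6 libraries, as the log2 of its CPM over the mean CPM of the 3 aged libraries; members are grouped by complex and ordered by their change without young 4. Young 4 (dark diamonds) is the highest of the 6 libraries for 36 of 43 members; the share over all tested genes is not given here. Young 5 and young 6 lie above all 3 aged libraries for 31 members (22.6% of all genes tested without young 4).

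Complex II had the smallest median, -0.33 over its 4 genes and -0.26 without young 4, and none of the 4 passed the test. Before adjustment 1, Sdhd, had a p under 0.05 in each fit (11.1% and 12.2% of all tested genes were lower at that level). Sdha, the flavoprotein that oxidises succinate, stood at 528, 567 and 554 CPM in the aged pools against 598, 595 and 582 CPM in young 4 to young 6. Its groups did not overlap, but they differed 1.08-fold (log2 fold change -0.11 ± 0.16 SE, adjusted p = 0.68, edgeR). Sdhb, the iron-sulfur subunit that takes the electrons onward, stood at 273, 403 and 301 CPM in the aged pools against 1061, 426 and 398 CPM in the young pools. Young 4 was 2.57 times the mean of young 5 and young 6, and aged 2 lay between young 5 and young 6. Its log2 fold change was -0.95 ± 0.41 SE (adjusted p = 0.203, edgeR) and -0.36 ± 0.19 SE without young 4 (adjusted p = 0.274).

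Of the membrane anchors of complex II, which hold the ubiquinone site, Sdhc stood at 119, 88.5 and 87.0 CPM in the aged pools against 93.9, 114 and 103 CPM in the young pools, with overlapping groups. Sdhd stood at 231, 223 and 203 CPM in the aged pools against 382, 302 and 279 CPM in the young pools, with no overlap. Its log2 fold change was -0.55 ± 0.18 SE (adjusted p = 0.123, edgeR), and without young 4 it was -0.43 ± 0.12 SE (adjusted p = 0.072). Sdhd thus differed more between ages than Sdha and Sdhc in the fit without young 4, where these had -0.12 ± 0.11 and -0.17 ± 0.17; the differences between genes were not tested. The Sdhd window printed above holds both the NRF1 and the ETS word, and that of Sdha the NRF1 word alone. The window of Sdhb holds the ETS word alone, and Sdhc had no window. A link between these words and the change with age was not tested.

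Complex III was below 0 for all 8 subunits, with a median of -0.65 over all 6 libraries and -0.40 without young 4. None of the 8 passed the test in either fit. Before adjustment 4 had a p under 0.05 in each (11.1% and 12.2% of all tested genes were lower at that level). Uqcrc1, a core protein at the matrix side, stood at 542, 746 and 619 CPM in the aged pools against 1226, 907 and 848 CPM in the young pools. The groups did not overlap, and the log2 fold change was -0.64 ± 0.23 SE (adjusted p = 0.142, edgeR) and -0.48 ± 0.17 SE without young 4. Uqcrfs1, the Rieske iron-sulfur protein that carries electrons to cytochrome c1, stood at 130, 121 and 112 CPM in the aged pools against 134, 172 and 159 CPM in the young pools. Here young 4 was the lowest young library, close to aged 1, and the log2 fold change went from -0.35 ± 0.16 SE (adjusted p = 0.226) to -0.47 ± 0.12 SE (adjusted p = 0.059) without it.

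Young 4 was the highest young library for the other 7 subunits of complex III instead, small ones among them. Uqcr10 stood at 136, 175 and 145 CPM in the aged pools against 516, 225 and 200.1 CPM in the young pools. Uqcrq stood at 93.8, 129 and 98.8 CPM in the aged pools against 340.3, 152 and 138 CPM in the young pools. Uqcrb stood at 105, 132 and 106 CPM in the aged pools against 286, 151 and 136 CPM in the young pools. Each kept aged below young in every library, and the log2 fold changes of -1.04, -0.97 and -0.74 came to -0.50, -0.45 and -0.35 without young 4. Uqcrh, the hinge protein next to cytochrome c1, had the smallest change there, -0.05 ± 0.13 SE (-0.41 ± 0.29 SE with all 6 libraries), with overlapping groups. Uqcr11 and the second core protein Uqcrc2 had -0.66 and -0.41 with all 6 libraries and -0.31 and -0.25 without young 4.

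Complex IV had the lowest median of the 4 complexes with all 6 libraries, -0.78 over 14 tested genes, and -0.38 without young 4. Cox5a, a subunit on the matrix side, stood at 114, 120 and 99.9 CPM in the aged pools against 242, 180 and 160 CPM in the young pools. Its log2 fold change was -0.80 ± 0.20 SE (adjusted p = 0.0661, edgeR) and, without young 4, -0.63 ± 0.13 SE (adjusted p = 0.0413), a 1.55-fold fall. The gene lies on mm10 chromosome 9, 57521232 to 57532426, plus strand, and its window above holds none of the searched words. Cox5b, its partner on the matrix side, stood at 106, 135 and 109 CPM in the aged pools against 361, 173 and 151 CPM in the young pools and did not pass in either fit (-0.97 ± 0.34 and -0.49 ± 0.15 SE).

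Young 4 was the highest young library for all 14 tested genes of complex IV, several small membrane subunits among them. Cox7c stood at 137, 181 and 133 CPM in the aged pools against 569, 190 and 179.5 CPM in the young pools. Young 4 was 3.08 times the mean of the other young libraries, and aged 2 lay between young 5 and young 6. Without young 4 its log2 fold change went from -1.05 ± 0.46 to -0.31 ± 0.17 SE. Cox7b, on the X chromosome, stood at 115, 140.4 and 124 CPM in the aged pools against 409.9, 171 and 144 CPM in the young pools and went from -0.93 to -0.33. Cox6c went from -0.99 to -0.41, and neither passed. Cox8a was less uneven, at 168, 155 and 144 CPM in the aged pools against 236, 209 and 185 CPM in the young pools (-0.43 ± 0.17 and -0.36 ± 0.12 SE).

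Several complex IV subunits come as a common form and as forms known from certain tissues, and these forms were compared within each family. Cox6b2, known as the testis form of a subunit that faces the intermembrane space, was the 1 member called with all 6 libraries. It stood at 21.9, 21.6 and 19.9 CPM in the aged pools against 42.8, 36.4 and 33.0 CPM in the young pools, from 418 to 752 counts per library. The groups did not overlap, and it fell 1.77-fold (log2 fold change -0.82 ± 0.17 SE, adjusted p = 0.0422, edgeR) or 1.67-fold without young 4 (adjusted p = 0.0382). The call was lost without any 1 of the other 5 libraries, where edgeR's adjusted p was 0.0855 (aged 1 left out), 0.119 (aged 2), 0.173 (aged 3), 0.122 (young 5) and 0.091 (young 6). Cox6b2 lies on mm10 chromosome 7, 4751792 to 4753094, minus strand, and overlaps no other row of the table.

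The common form Cox6b1 was at 191, 236 and 197 CPM in the aged pools against 550, 263 and 242 CPM in the young pools (log2 fold change -0.76 ± 0.33 and, without young 4, -0.30 ± 0.14 SE). Of the counts of the pair, Cox6b2 took 10.3%, 8.38% and 9.19% in aged 1 to aged 3. It took 12.2% in young 5 and 12% in young 6, but 7.22% in young 4, the lowest share of all. The share therefore separated the ages only when young 4 was left out. Per kb of gene, Cox6b1 was at 415 ± 48.9 CPM per kb in aged and 702 ± 343 in young libraries, and Cox6b2 at 34.4 ± 1.71 and 61.0 ± 8.12 (SD, n = 3 each).

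Cox7a2 and Cox7a2l went apart. Cox7a2, the common form of subunit VIIa, stood at 98.3, 117 and 89.6 CPM in the aged pools against 332, 143 and 128 CPM in the young pools (log2 fold change -0.98 ± 0.37 and, without young 4, -0.44 ± 0.15 SE). Cox7a2l, known for joining complexes III and IV into supercomplexes, stood at 293, 324 and 330 CPM in the aged pools against 381, 273 and 261 CPM in the young pools. Its log2 fold change was 0.05 ± 0.20 SE and, without young 4, 0.22 ± 0.12 SE (adjusted p = 0.281); all 3 aged libraries then lay above young 5 and young 6. Neither gene passed the test. Cox7a2 made up 25.1%, 26.4% and 21.3% of the counts of the VIIa family in aged 1 to aged 3, and 46.4%, 34.4% and 32.9% in young 4 to young 6. The shares did not overlap between ages, with or without young 4; with 3 libraries a group no exact test of such a share can pass 0.05, and none was made. Cox7a1, the form of heart and skeletal muscle, had 5 to 27 counts per library and at most 0.315% of the family's counts. It stood at 0.240, 1.39 and 0.604 CPM in the aged pools against 1.99, 0.249 and 0.351 CPM in the young pools, with no order by age.

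**Figure D2:**
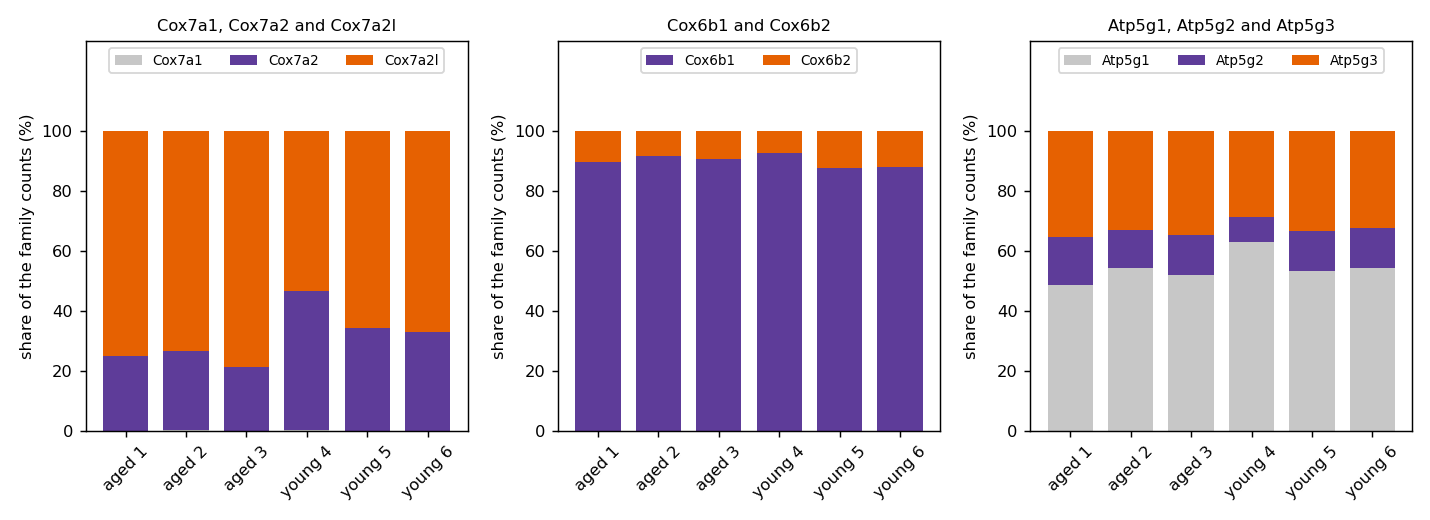
Share of each form in the counts of its family, in percent, for the 6 libraries (stacked bars; Cox7a1 is too low to see). The Cox7a2 share is 21.3% to 26.4% in aged and 32.9% to 46.4% in young libraries, while the Atp5g1 share, 48.7% to 54.3% in aged libraries, overlaps the 53.5% to 63.0% of young libraries.

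Of the remaining forms, Cox4i2, known as the form of lung and of low oxygen, was detected at a low level: 5.13, 5.42 and 6.87 CPM in the aged pools against 10.2, 10.01 and 8.33 CPM in the young pools. The groups did not overlap, and the log2 fold change was -0.71 ± 0.23 SE and, without young 4, -0.68 ± 0.23 SE (adjusted p = 0.116 and 0.12, edgeR). The interval of Cox4i2 overlaps that of Bcl2l1 on the other strand. Reads from any stretch of exon that both share cannot be told apart without strand marks, and whether their exons overlap was not checked. The common form Cox4i1 was at 367, 330.3 and 332 CPM in the aged pools against 503, 406 and 353 CPM in the young pools, with overlapping groups and -0.29 ± 0.19 SE (-0.17 ± 0.12 SE without young 4). Cox4i2 took 1.38% to 2.03% of the counts of the pair in aged and 1.98% to 2.41% in young libraries. Cox6a1, the common form of subunit VIa, stood at 158, 147 and 132 CPM in the aged pools against 219, 218 and 187 CPM in the young pools. It was among the members that young 4 hardly moved, at -0.51 ± 0.16 and -0.50 ± 0.13 SE (adjusted p = 0.107 and 0.0707).

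Of the other forms known from muscle or testis, Cox6a2 and Cox8b (heart and muscle) and Cox8c (testis) had 0 counts in all 6 libraries, which allows levels of up to 0.132 CPM (young 6) to 0.239 CPM (young 4), taken as 3 counts and for counting error only. Cox7b2 (testis) had 8 counts in all. These 4 members were not tested. Of 5 muscle markers, Acta1, Myh7, Ckm, Tnnt2 and Myl2, the summed level was 0.288 to 1.75 CPM in the aged pools against 0.249 to 0.557 CPM in the young pools.

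Complex V had a median of -0.65 with all 6 libraries and -0.35 without young 4, and without young 4 all 15 of its subunits were below 0. In the head of the enzyme, Atp5a1 and Atp5b, the alpha and beta subunits that form the catalytic sites, did not follow the small subunits in young 4. Atp5a1 stood at 675, 521 and 508 CPM in the aged pools against 604, 741 and 679 CPM in the young pools. Atp5b stood at 756, 487 and 479 CPM in the aged pools against 493, 819 and 711 CPM in the young pools. In both genes aged 1 was above young 4, and the log2 fold changes were -0.25 ± 0.20 and -0.23 ± 0.28 SE, or -0.35 ± 0.16 and -0.44 ± 0.22 SE without young 4.

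In the central stalk, which turns inside the head, Atp5c1 (gamma) stood at 354, 364 and 327 CPM in the aged pools against 615, 446 and 421 CPM in the young pools (-0.50 ± 0.20 and, without young 4, -0.34 ± 0.11 SE). Atp5d (delta) went the other way in young 4: it stood at 146, 80.1 and 98.5 CPM in the aged pools against 51.0, 133 and 114 CPM in the young pools, so that young 4 was the lowest of the 6. Its log2 fold change was 0.12 ± 0.38 SE and turned to -0.22 ± 0.25 SE without young 4. Atp5e (epsilon) stood at 101, 97.7 and 91.3 CPM in the aged pools against 221, 144 and 131 CPM in the young pools. It went from -0.78 ± 0.23 SE (adjusted p = 0.0921, edgeR) to -0.53 ± 0.11 SE (adjusted p = 0.0428), a 1.45-fold fall without young 4. Atp5e lies on mm10 chromosome 2, 174461075 to 174464101, minus strand, and its window above holds 1 ETS word.

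Of the stator, which keeps the head from turning, Atp5o, the subunit that confers oligomycin sensitivity, had the highest level per length in the complex (550 CPM per kb over all libraries). It stood at 236, 322 and 248 CPM in the aged pools against 933, 413 and 369 CPM in the young pools, with no overlap (log2 fold change -1.09 ± 0.38 and, without young 4, -0.56 ± 0.17 SE; adjusted p = 0.137 and 0.0955, edgeR). Atp5f1 (subunit b), Atp5h (subunit d) and Atp5j (coupling factor 6) had -0.55, -0.60 and -0.73, and -0.34, -0.31 and -0.32 without young 4. Atp5j overlaps Gabpa, the ETS factor gene, on the opposite strand.

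The genes Atp5g1, Atp5g2 and Atp5g3 encode the same mature c subunit of the membrane ring with different import peptides. Atp5g1 stood at 176, 199 and 168 CPM in the aged pools against 527, 292 and 257 CPM in the young pools. It went from -0.99 ± 0.29 SE (adjusted p = 0.0959, edgeR) to -0.62 ± 0.13 SE without young 4 (adjusted p = 0.0429), a 1.54-fold fall. Atp5g2 stood at 58.0, 46.3 and 43.2 CPM in the aged pools against 70.4, 72.2 and 62.6 CPM in the young pools, with -0.48 ± 0.17 and -0.48 ± 0.16 SE. Atp5g3 stood at 128, 121 and 111 CPM in the aged pools against 239, 181 and 152 CPM in the young pools, with -0.67 ± 0.20 and -0.50 ± 0.13 SE. All 3 had aged below young in every library. Per kb of gene, Atp5g1 was at 210 ± 18.5 CPM per kb in aged and 416 ± 170.4 in young libraries, Atp5g3 at 167 ± 11.4 and 266 ± 61.8, and Atp5g2 at 76.6 ± 12.1 and 107 ± 7.93 (SD, n = 3 each).

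Of the membrane subunits, some of which are known to join ATP synthases into dimers, Atp5k (subunit e) had the largest change with all 6 libraries and the largest excess in young 4 among subunits with over 100 counts in every library. It stood at 42.6, 49.5 and 42.2 CPM in the aged pools against 195, 59.2 and 65.7 CPM in the young pools (-1.25 ± 0.46 and, without young 4, -0.50 ± 0.14 SE; adjusted p = 0.152 and 0.0788, edgeR). Atp5l (subunit g) and Atp5j2 (subunit f) had -0.65 and -0.89, or -0.21 and -0.33 without young 4. Atp5l overlapped between groups, since aged 2, at 85.9 CPM, was above young 6, at 81.9 CPM.

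**Figure D3:**
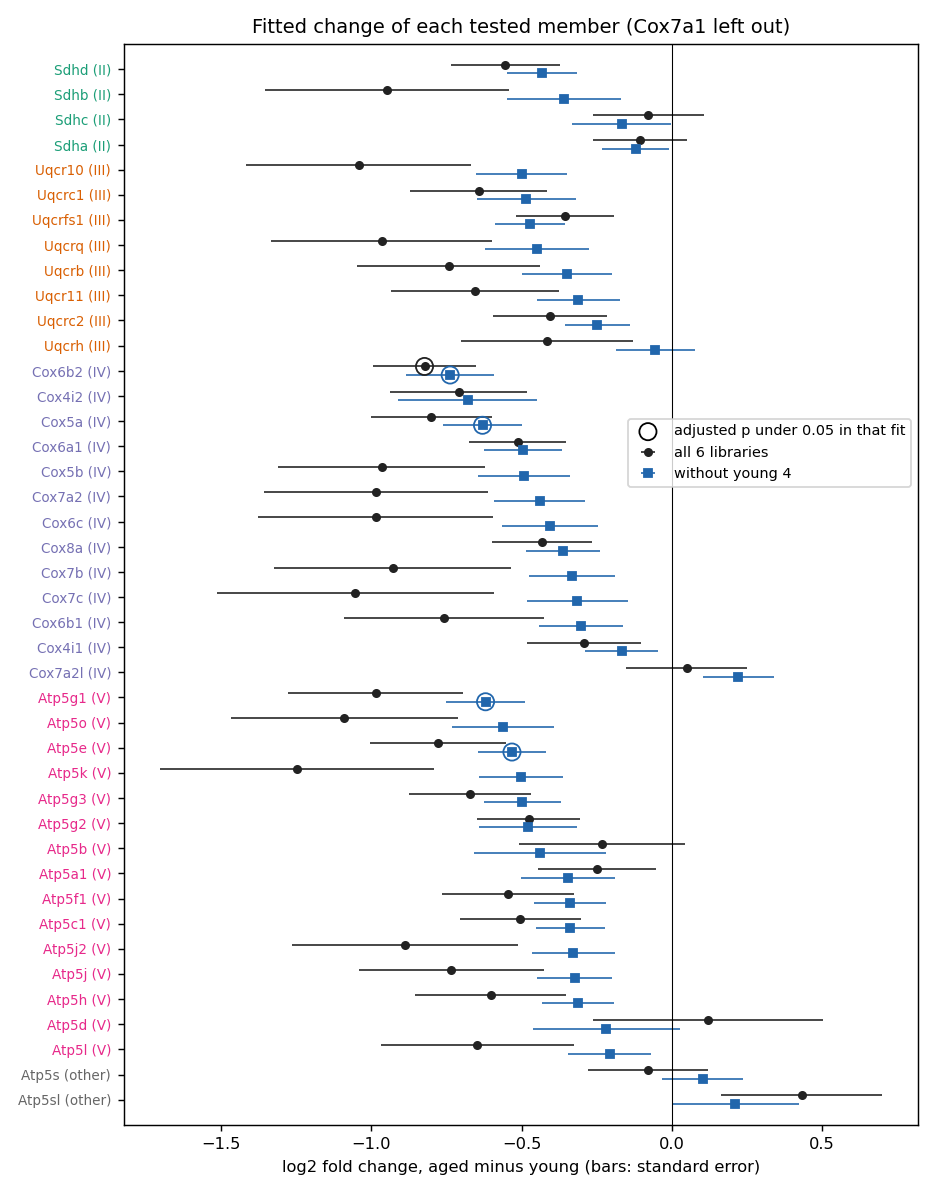
Log2 fold change (aged minus young) of each tested member but Cox7a1, with its standard error, from the fit of all 6 libraries (dark circles) and without young 4 (blue squares); rings mark an adjusted p under 0.05 in that fit. Cox6b2 is ringed in both fits and Cox5a, Atp5e and Atp5g1 without young 4, and most members move toward 0 when young 4 is left out.

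The members that are not subunits had log2 fold changes near or above 0, as had the subunits Sdhc, Cox7a2l and Atp5d with all 6 libraries. Atp5s, also named Dmac2l, was at 51.6 ± 3.20 CPM in the aged pools against 54.5 ± 12.7 CPM in the young pools (SD, n = 3 each; log2 fold change -0.08 ± 0.20 and, without young 4, 0.10 ± 0.14 SE). Atp5sl, also named Dmac2 and known from the assembly of complex I, was at 36.2 ± 8.67 and 26.8 ± 6.88 CPM (0.43 ± 0.27 and, without young 4, 0.21 ± 0.21 SE). With Cox7a2l, Atp5d and Cox7a1 they make up the tested members with a value above 0 in at least 1 of the 2 fits.

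Young 4 stood at more than 2 times the mean of young 5 and young 6 in 15 of the 43 tested members and was below both in 6: Atp5a1, Atp5b, Atp5d, Atp5sl, Sdhc and Uqcrfs1. These shares over all tested genes are not given here. The median ratio of young 4 to the mean of young 5 and young 6 was 1.17 in complex II, 1.89 in complex III, 1.80 in complex IV and 1.61 in complex V. By gene length as the table gives it, the median was 2.00 over the 29 members under 1 kb and 1.36 over the 14 longer ones. Over all tested genes these medians were 1.60 (923 genes) and 0.980 (12490 genes). Across the 43 members, which share these libraries, Pearson's r between log2 length and the log2 of this ratio was -0.57 (Spearman's rho -0.61), and between GC content and the ratio -0.24 (rho -0.22). Over all tested genes the order was the reverse, with an r of -0.13 (rho -0.13) for log2 length and of -0.43 (rho -0.46) for GC content. The log2 fold change of the 43 members over all 6 libraries had an r of 0.55 (rho 0.55) with log2 length. Without young 4 it had an r of 0.06 (rho 0.21).

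**Figure D4:**
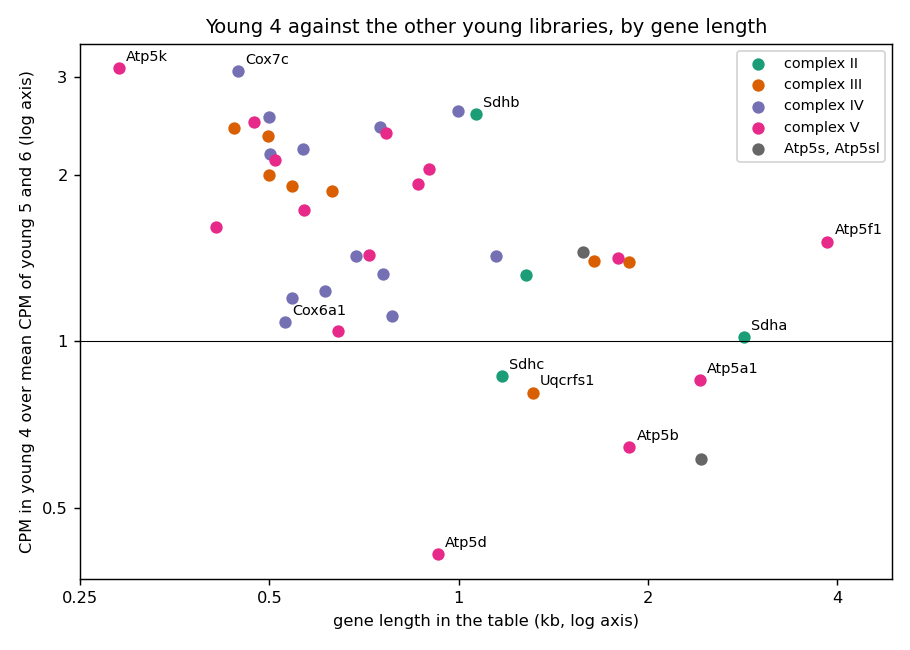
Level in young 4 over the mean of young 5 and young 6 (log axis) against the gene length in the table in kb (log axis), for 42 tested members, with Cox7a1 left out. Members under 1 kb lie mostly above 1, up to 3.12 for Atp5k, with Atp5d at 0.412 as the lowest.

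With each library's trend by gene length taken out, the median of the members was -0.39 and 0 were called by edgeR (14 lower and 0 higher with p under 0.05 before adjustment; 11.3% of all tested genes were lower at that level). A fit that also took out the trend by GC content was added after seeing the data. Its median was -0.31, and Cox6b2 was called (2.84% of all genes tested there were called lower). With young 4 also left out the median was -0.28, and Atp5e, Atp5g1 and Cox6b2 were called (3.64% of all genes). Cox5a then had -0.43 ± 0.14 SE, with an adjusted p of 0.157. Fits without any 1 of aged 1, aged 2, aged 3, young 5 or young 6 called 0 members by edgeR, where 5 (aged 3 left out) to 30 (young 6 left out) were lower with p under 0.05 before adjustment. Of all genes tested in these 2 fits, 5.38% and 11.5% were lower at that level. DESeq2 was not run on these fits.

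Other genes of respiration were counted in lists. Of the 36 tested subunits of complex I, which feeds electrons from NADH into the chain, all were below 0 with a median of -0.66, and 0 were called. Without young 4, 35 were below 0 (median -0.30, 0 called). Of all tested genes, 47.3% and, without young 4, 46.6% were below 0. Before adjustment, 15 and 14 of the subunits were lower with p under 0.05, and 0 higher. For these and the lists below, 11.1% and, without young 4, 12.2% of all tested genes were lower at that level. The smallest p among the complex I subunits was that of Ndufab1, the acyl carrier protein, at -0.70 ± 0.20 and, without young 4, -0.52 ± 0.12 SE (adjusted p = 0.0894 and 0.0527, edgeR). Of 34 assembly factors of complexes II to V, 0 were called (3 lower and 0 higher with p under 0.05 before adjustment), with a median of -0.36; without young 4 the median was -0.08 and 1 was called. This was Uqcc2, an assembly factor of complex III, at 72.0, 85.1 and 72.7 CPM in the aged pools against 223, 114 and 111 CPM in the young pools (-0.96 ± 0.29 and, without young 4, -0.58 ± 0.13 SE; adjusted p = 0.103 and 0.0488, edgeR). Of 13 further subunits, carriers and channels, 0 were called in either fit (medians -0.66 and -0.36; 7 lower in each before adjustment). Among them Cycs, which encodes cytochrome c, was at 72.3, 87.0 and 57.2 CPM in the aged pools against 376, 129 and 120.1 CPM in the young pools (-1.53 ± 0.46 and, without young 4, -0.81 ± 0.19 SE; adjusted p = 0.101 and 0.0527).

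Genes of the citric acid cycle and of pyruvate dehydrogenase had medians of -0.32 and, without young 4, -0.26 over 17 genes, with 0 called and 5 lower before adjustment in each fit. Idh3a, a subunit of isocitrate dehydrogenase, was at 182 ± 11.6 CPM in the aged pools against 282 ± 57.8 CPM in the young pools (SD, n = 3 each), with log2 fold changes of -0.63 ± 0.19 and, without young 4, -0.47 ± 0.11 SE. Of 17 regulators of mitochondrial gene expression, among them the genes of NRF1, GABPA and TFAM, 0 were called in either fit, with medians of -0.14 and -0.03 (0 lower and 1 higher, and 2 lower and 0 higher, before adjustment). Ribosomal proteins of the cytosol had a median of -0.22 over 78 genes with all 6 libraries and -0.02 without young 4. The 1 called was Rps4l, at 5.99, 6.40 and 4.97 CPM in the aged pools against 21.2, 20.7 and 18.8 CPM in the young pools (-1.80 ± 0.20 and, without young 4, -1.79 ± 0.20 SE; adjusted p = 0.00917 and 0.0106, edgeR). Whether it shared reads with other ribosomal protein genes was not tested.

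Genes of cell division and markers of other cell types were set beside these levels. Of 23 cell division genes, all 23 were below 0 in aged cells (47.3% of all tested genes were, and 46.6% without young 4). Of these 23, 7 were called lower (6 without young 4), where 1.5% (2.54%) of all tested genes were called lower. The medians of the 23 were -1.61 and, without young 4, -1.51. The smallest p-values were those of Mcm4, part of the replicative helicase (-1.08 ± 0.19 SE), Cdc20, which starts anaphase (-1.72 ± 0.31 SE), and the kinetochore motor Cenpe (-1.93 ± 0.38 SE), with adjusted p-values of 0.0278, 0.0323 and 0.0371 by edgeR. Without young 4 these had -1.02, -1.62 and -1.76, with adjusted p-values of 0.0233, 0.0372 and 0.0451. Their summed level was 3098, 2501 and 1481 CPM in the aged pools against 6556, 5641 and 5246 CPM in young 4 to young 6. Within the aged group, aged 3 was lowest in that sum and in the sum of all 47 members (7500 CPM, against 8088 in aged 1 and 8406 in aged 2). The order above it differed: aged 1 was highest in the cell division sum and aged 2 in the sum of the members. By complex, II, IV and V were lowest in aged 3, but III was lowest in aged 1 (1504 CPM, against 1602 CPM in aged 3). In the marker lists of other cell types, 0 genes were called by edgeR in the fit of all 6 libraries. The sum of 6 erythroid markers overlapped between ages, at 60.4 to 160 CPM in the aged pools against 86.6 to 354 CPM in the young pools, with Car1 the most abundant in young 5 at 209 CPM. Granulocyte and monocyte markers summed to 6.28 to 14.2 and 9.86 to 13.6 CPM, also with overlap. Macrophage markers summed to 34.8 to 36.8 and 39.5 to 69.6 CPM, with every aged library below every young one. T and NK cell markers summed to at most 0.722 CPM. Cd79b, a gene of the B lineage, stood at 58.0 to 85.1 CPM in the aged pools against 73.2 to 133 CPM in the young pools, with Cd79a at or below 0.877 CPM. Endothelial markers summed to 170.4 to 204 and 162 to 175 CPM, mostly Tek, with Cdh5 at or below 1.27 CPM. The part of these genes in the results on complexes II to V was not tested.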

How the data were processed

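The data are RNA-seq counts of 6 libraries of sorted mouse stem cells. Per the labels' protocols, total RNA went through SMART-Seq v4, a full-length cDNA amplification without strand marks, and was sequenced as single reads of 51 cycles. Per the submitters' processing notes, Trimmomatic, STAR 2.6.0, HTSeq 0.11.1 and edgeR were used with build mm10; the sources used here give no settings. What the authors deposited is a single table of unscaled counts, with gene lengths in kb in another column. Many subunit genes have processed pseudogenes, and how reads that match several places were counted is not stated, so levels of such genes may be too low. The intervals of 19 of the 47 members, from start to end, overlap another row. Some of these rows span places far apart: Eno1b overlaps both Sdhb and Uqcrh, and Mir5098 overlaps Uqcrq, Atp5g1 and Atp5h. The count therefore overstates how many members lie over another gene, and exons were not compared.

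Differences were tested over the whole table with edgeR 4.0.16 (R 4.3.3; TMM, filterByExpr, glmQLFit, glmQLFTest, Benjamini-Hochberg adjustment over 13413 genes, threshold 0.05), with age as the 1 term. Fold changes are aged minus young. The SE of an edgeR log2 fold change is its absolute value divided by the square root of the F statistic of its test. CPM are scaled by the TMM factors of all 6 libraries, also where a fit leaves young 4 out. Alternatives used DESeq2 1.42.0, limma 3.58.1 and the settings in the closing section. Only the main edgeR fit was also run on simulated counts, in which no library stood apart as young 4 does. Splines with 4 degrees of freedom took out the trends, with GC content from GENCODE transcripts.

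The members, gene lists and alternatives were chosen with earlier results of these data known. Values in every library are given for all of complex II, for the 4 smallest p-values, the highest log2 fold change and the highest CPM per kb of complexes III to V, and for forms with at least 10 counts. Atp5a1, Atp5b, Atp5c1, Atp5k, Cox5b and Cox7c were added after their values were seen, as were the promoters printed. Genes of other lists are some of those with the smallest p in 1 of the main fits. The summed level of the B lineage markers is not reported here.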

Additional observations from a re-analysis of the deposited data

How the results depend on the processing

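The median kept its direction: the members' median log2 fold change was below 0 in all 20 alternatives, and 35 to 41 members were below 0. Sizes depended on young 4: without it the median was -0.35 for all members, -0.40 for complex III, -0.38 for complex IV and -0.35 for complex V; over the runs that leave out 1 library it ran from -0.80 (without young 6) to -0.35 for all members, from -0.92 to -0.38 for complex IV and from -0.82 to -0.35 for complex V. The number called lower ran from 0 to 4 over these runs and was 2 with young 4 and aged 2 both left out, 0 with library totals only, without a filter on low counts, at 5 CPM or more in 3 libraries or with the length trend taken out, 11 by DESeq2 and 20 by limma-voom with quality weights. With library totals only, the median of all genes shifted by 0.16; the members' median was -0.43, or -0.63 relative to all genes (-0.69 with TMM), and that of complex II -0.15. In the fit without the GC and length trend the medians were -0.31 (all members), -0.14 (II), -0.38 (III), -0.38 (IV) and -0.25 (V), and with young 4 also left out -0.28, -0.18, -0.31, -0.24 and -0.29, with 3 called. The cause of these shifts was not tested.

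Signs turned for members near 0. Atp5d ran from -0.22 (without young 4) to 0.39 (without young 5) over the runs that leave out 1 library, with -0.16 without aged 1; it was at -0.052 without young 4 and aged 2, -0.35 with quality weights and -0.24 in the GC and length fit without young 4. Atp5s ran from -0.21 (without young 5) to 0.10 (without young 4), and was at 0.049 without young 4 and aged 2, 0.0020 with upper-quartile scaling, 0.12 with library totals, 0.15 with quality weights, 0.044 in the length fit, and 0.22 and 0.23 in the GC and length fits with and without young 4. Cox7a1, with few counts, ran from -0.94 (without aged 2) to 1.26 (without young 4), with 0.31 without aged 1 and 0.012 without aged 3; it was at 0.17 with library totals, 0.19 by limma-voom, 1.20 with quality weights, 0.29 in the length fit, and 0.084 and 1.31 in the GC and length fits. Sdhc was at 0.0029 without aged 3, 0.075 with library totals, 0.10 in the length fit and 0.092 in the GC and length fit, and Sdha at 0.058 with library totals. Cox7a2l was at -0.03 without young 5 and -0.055 without young 6. Of 558 values of 28 named members under 20 alternatives, 489 kept direction and call, 30 gained a call, 10 lost it and 29 turned. The GC and length fits were chosen after seeing the data. No paired analysis was possible because aged and young samples share no replicate number.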
